A study of Mus musculus with 28 samples.

Results

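The step from young to mid adulthood was followed in the RNA of extracellular vesicles (EVs) from mouse blood. Of the 28 small RNA libraries of the series, 10 were compared here, all made from the EV-enriched pellet: 3 of mice aged 2 months, 4 of mice aged 6 months and 3 of mice aged 8 months. The 6-month and 8-month libraries were joined into 1 group of 7 and were also compared apart. All mice were female wildtype C57BL/6N, an inbred laboratory strain, and no mouse carried an allele or received a treatment that set one age apart from another. Blood was drawn from the vena cava under ketamine and xylazine, plasma was cleared of platelets, large vesicles and debris by centrifugation, and the pellet of an ultracentrifuge run was kept as the EV fraction. Each library came from 1 mouse without pooling, so the spread between libraries of an age is the spread between mice plus that of the preparation. A pellet of this kind is a fraction defined by sedimentation, and it can hold protein and ribonucleoprotein particles beside vesicles. In such a bulk fraction, fewer vesicles from a cell type and less RNA per vesicle cannot be told apart.

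Extracellular vesicles are membrane-bound particles that cells shed into body fluids, and in blood many of them come from blood cells and the vessel wall. They hold short RNAs: mature microRNAs (miRNAs), which guide silencing complexes to messenger RNAs through a short seed at their 5′ end, and fragments of tRNAs, rRNAs, Y RNAs, small nuclear (snRNA), small nucleolar (snoRNA) and long noncoding RNAs (lncRNAs). Red cells and their precursors are rich in miR-451a, miR-144 and miR-486, the miR-15/16 and miR-17 families act in blood cell growth and survival, and H/ACA box snoRNAs guide pseudouridylation of rRNA in the nucleolus.

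The miRNAs on which the results turned are given as mature sequences from RefSeq (GRCm38.p6), 5′ to 3′, with the seed (bases 2 to 8) in capitals. A mature sequence was matched for 216 of the 271 miRNAs that passed the expression filter. The miRNA with the smallest p of all RNAs was miR-296-5p, at chr2:174267093-174267113 on the minus strand, outside any annotated host gene. The red cell miRNAs miR-144 and miR-451a lie side by side on the plus strand of chromosome 11, at chr11:78073010-78073032 (miR-144-5p), chr11:78073047-78073066 (miR-144-3p) and chr11:78073186-78073207 (miR-451a).
miR-296-5p: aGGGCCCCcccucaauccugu
miR-144-5p: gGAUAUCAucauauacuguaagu
miR-144-3p: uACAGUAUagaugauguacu
miR-451a: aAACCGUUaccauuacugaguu

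A further set shows seeds that several lower miRNAs shared. miR-15a, miR-15b and miR-16 carry the seed AGCAGCA. miR-15a lies in an intron of the noncoding gene Dleu2 on chromosome 14 and miR-15b in an intron of Smc4 on chromosome 3, each beside a copy of miR-16. miR-17, miR-20a and miR-93 carry AAAGUGC, the first pair within Mir17hg on chromosome 14 and miR-93 within Mcm7 on chromosome 5, where miR-25 also lies. let-7d, let-7g, let-7i and miR-98 carry GAGGUAG.
miR-15a-5p: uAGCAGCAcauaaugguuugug
miR-15b-5p: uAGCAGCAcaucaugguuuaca
miR-16-5p: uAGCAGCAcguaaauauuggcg
miR-17-5p: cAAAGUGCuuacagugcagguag
miR-20a-5p: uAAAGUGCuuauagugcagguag
miR-93-5p: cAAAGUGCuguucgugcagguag
miR-25-3p: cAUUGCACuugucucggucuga
let-7d-5p: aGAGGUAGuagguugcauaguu
let-7g-5p: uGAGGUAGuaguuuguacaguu
let-7i-5p: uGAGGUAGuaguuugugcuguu
miR-98-5p: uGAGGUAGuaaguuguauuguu
miR-7a-5p: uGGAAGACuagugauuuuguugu

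The authors deposited estimated counts for 80668 RNAs in 10 classes. The total count of a library ran from 9894179 to 27444646 at 2 months, from 4764338 to 14639965 at 6 months and from 8769322 to 18364943 at 8 months, of which miRNAs took 20063 to 95288 counts. No pair of libraries of an age agreed within counting noise (chi-square statistics of 72.9 to 282 per degree of freedom). The 10 EV libraries differed from the plasma libraries of the same ages in makeup, with 11.3% to 41.9% tRNA counts against 43.8% to 66.9% and 20.7% to 61.4% rRNA counts against 6.05% to 17.4%. In 4 EV libraries (6-month replicates 2, 3 and 4 and 8-month replicate 2) over 20% of the counts were annotated to circular RNAs (circRNAs) and lncRNAs, between 20.2% and 25.5%. The other 6 held 7.46% to 17.6%, and all 3 libraries of 2-month mice were among them. The scaling factors computed by TMM, the trimmed mean of M values, lay between 1.68 and 2.08 in those 4 libraries and between 0.47 and 1.07 in the other 6. Values relative to all RNAs therefore moved with this makeup, and results are given with those 4 libraries and without them. Libraries of one makeup filled most of the 6-month group, so makeup and age cannot be fully told apart.

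No RNA class passed the test for a difference in its share of the EV libraries between 2 months and 6 to 8 months. tRNA fragments took 41.7%, 24.9% and 34.3% of all counts at 2 months, 26.0%, 20.8%, 41.9% and 29.8% at 6 months and 11.3%, 25.8% and 15.1% at 8 months. The mean share was 33.6% ± 8.42 (SD, n = 3) at 2 months and 24.4% ± 10.1 (SD, n = 7) at 6 to 8 months (difference −9.21 percentage points, exact two-sided permutation p = 0.233, adjusted 0.444 over the 10 classes). The 8-month values included the lowest of all, but the groups overlapped at each age. circRNA counts took 11.2%, 11.9% and 5.87% at 2 months, 10.7%, 16.7%, 17.1% and 15.9% at 6 months and 10.3%, 20.2% and 13.2% at 8 months. The difference of 5.22 points did not pass the test (exact permutation p = 0.1, adjusted 0.333), nor did that of lncRNAs (1.49 points, exact permutation p = 0.0833, adjusted 0.333). rRNA was the largest or second largest class in each library, with means of 42.1% ± 10.1 and 41.6% ± 13.3 (difference −0.53 points, exact permutation p = 1). miRNAs took 0.347% to 0.411% at 2 months and 0.222% to 0.5683% at 6 to 8 months. The smallest p that 120 arrangements allow is 0.0167. For 6 against 2 and 8 against 6 months it is 0.0571 and for 8 against 2 months 0.1, so no single value could pass the threshold of 0.05 there. A class that alone reached 0.0167 would also fail after adjustment over the 10 classes. The test therefore cannot show that the makeup was the same at these ages.

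**Figure D1:**
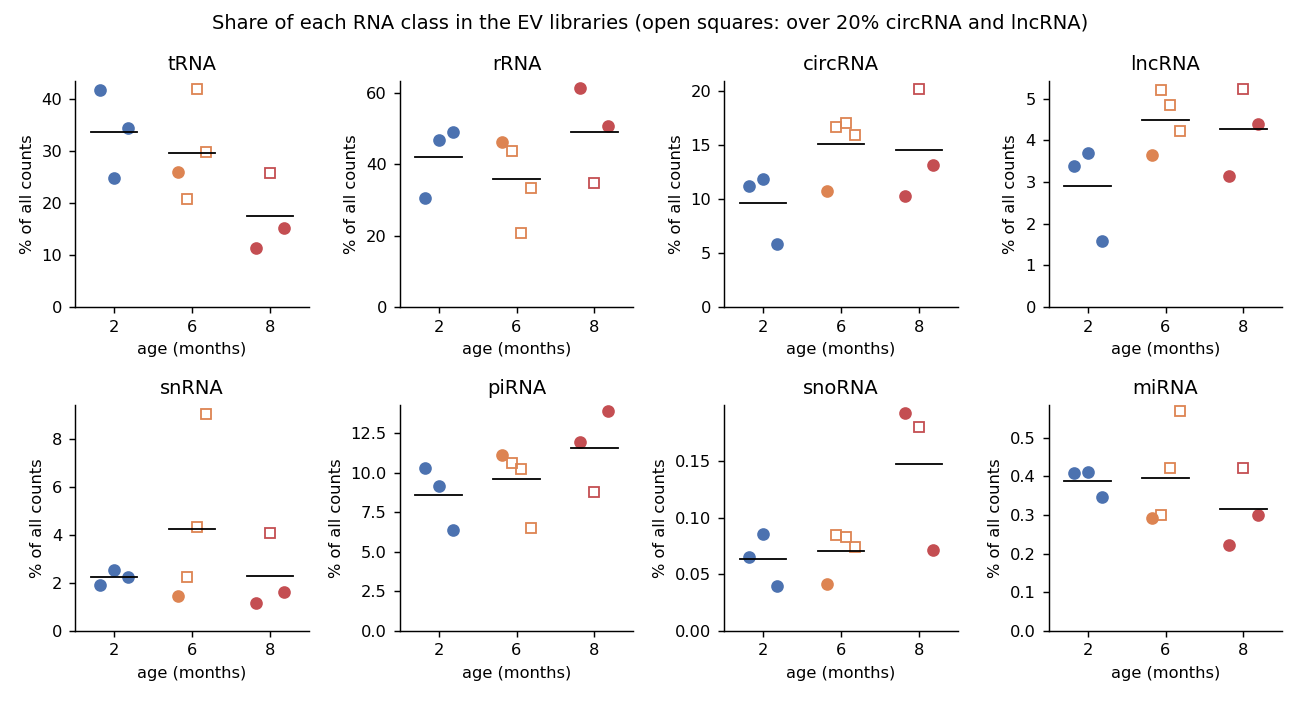
Share of all counts (percent, linear axes) of 8 RNA classes in each of the 10 EV libraries by age, with bars at the group means. Open squares mark the 4 libraries with over 20% circRNA and lncRNA counts. tRNA shares run from 11.3% to 41.9% and the ages overlap in each panel.

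Across single RNAs, 17514 passed the filter (at least 1 RPM, reads per 1000000, in at least 2 of the 10 libraries), and edgeR's quasi-likelihood test called none at an adjusted p under 0.05 between 6 to 8 months and 2 months (0%). At an unadjusted p under 0.05, 623 RNAs were lower (3.56%) and 468 higher (2.67%) at 6 to 8 months. The split turned with the scaling, to 307 lower and 350 higher with RPM and 34 and 1156 against the total count. With depth as a covariate 285 were lower and 248 higher. The filter favoured one side, since 3109 RNAs reached 1 RPM in no 2-month library and 19 in no later library, among them 304 of the 468 higher RNAs and 14 of the 623 lower ones. An RNA that passed in this way had to differ between the ages, and its fold change and overlap are given as a description only. The counts of each class and family below are read against these shares. In what follows "lower" and "higher" for a count of RNAs mean an unadjusted p under 0.05 in edgeR, and single values are counts per 1000000 (CPM) after TMM scaling. limma called none on log2(RPM + 1), with 285 lower and 127 higher, and none on log2(RPM + 0.1), with 289 and 205. DESeq2 called 12 RNAs at an adjusted p under 0.05 (0.0685%), all lower at 6 to 8 months: miR-144-5p, miR-486a-3p, miR-486b-3p, miR-7a-5p, tRNA-Ala-CGC-5-1, tRNA-Pro-TGG-4-1, oocyte_piRNA715, oocyte_piRNA1303, the circRNA mmu_circ_0007125 and the lncRNAs A330087D11Rik and Gm5468 (2 transcripts with 1 set of counts). When each class was scaled and adjusted on its own, edgeR called 15 (0.0856%), of which 14 were lower: 10 tRNA genes, oocyte_piRNA1831, oocyte_piRNA1916, miR-296-5p and Scarna2. The only one higher was tRNA-Cys-GCA-8-1. The CPM of 135 RNAs was lower in all 7 libraries of 6 to 8 months than in each 2-month library (0.771%), and that of 159 RNAs was higher (0.908%). Of these, 7 of the 135 and 100 of the 159 had passed the filter through the high group alone. miRNAs made up 17 of the 135, or 6.27% of the miRNAs tested, and none of the 159.

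The direction of a class depended on what it was scaled to. The median log2 fold change of all RNAs was 0.07 under TMM, 0.27 under RPM and 0.87 when scaled to the total count, and class values are read relative to these. tRNA genes had a median of −0.85 under TMM and −0.72 under RPM, but of −0.04 against the total count and 0.14 when TMM was computed within tRNAs. TMM within a class brings the typical fold change of that class near 0 by construction. Its values therefore show only how members differ from their class, here and below. miRNAs had medians of −0.52, −0.41, 0.22 and 0.09 on the same 4 scales. circRNAs (0.11, 0.32, 0.92 and 0.06) and lncRNAs (0.09, 0.28, 0.89 and 0.07) followed the median of all RNAs, of which they make up most. rRNAs (−0.53, −0.58, 0.06 and 0.15) lay below it on the first 3 scales and snoRNAs (0.36, 0.27, 0.85 and 0.27) close to it. Thus the medians of tRNAs, miRNAs and rRNAs lay below those of circRNAs and lncRNAs on the first 3 scales, while against the total count none of the 3 lay further than 0.22 from 0.

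**Figure D2:**
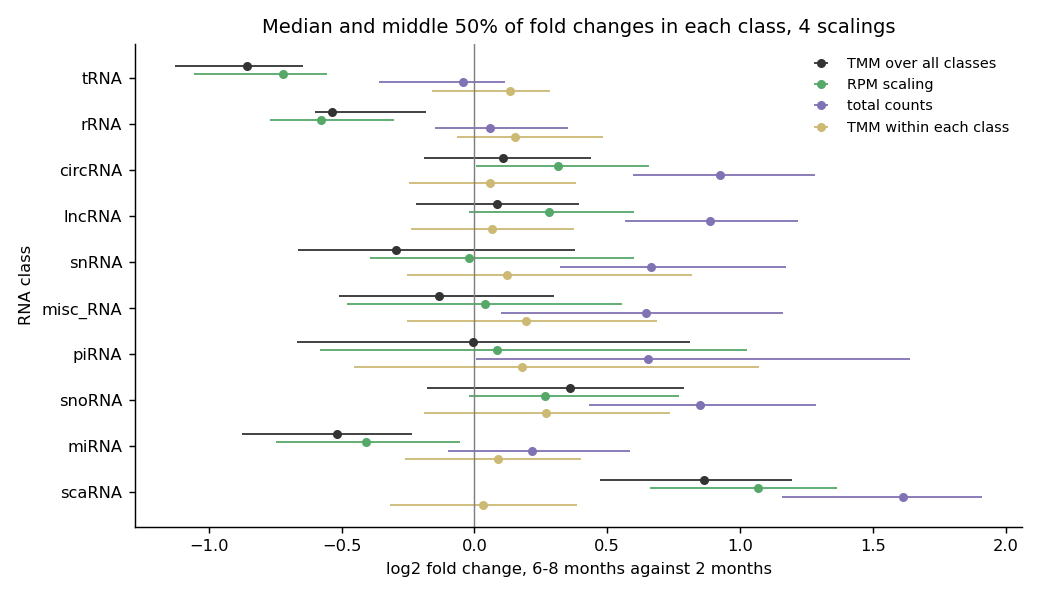
Median log2 fold change (points) and the middle 50% (lines) of the RNAs of each class, 6 to 8 months against 2 months, under 4 scalings. tRNAs and miRNAs lie below 0 under TMM and RPM (−0.85 and −0.52 under TMM) and near 0 when scaled within their class (0.14 and 0.09). Scaling within a class brings it near 0 by construction.

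Of the 271 miRNAs, 51 were lower and 0 higher at 6 to 8 months, and 229 of 271 had a log2 fold change below 0. With RPM scaling 38 were lower and 0 higher. With TMM within miRNAs 26 were lower and 10 higher, and against the total count 3 were lower and 1 higher. Of the 51, 3 had passed the filter through the 2-month libraries alone. Without 2-month replicate 3, 18 of 255 were lower and the median log2 fold change moved from −0.52 to −0.21, while leaving out any other library gave 44 to 70 lower. With depth as a covariate 30 were lower and 1 higher (median −0.30). Without the 4 libraries rich in circRNA and lncRNA counts, 24 of 284 were lower and 8 higher.

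Every tested red cell miRNA was lower at 6 to 8 months. Of 7 listed members 6 passed the filter (miR-363-3p did not), all 6 were lower, 5 without overlap between the ages, and their median log2 fold change was −1.44 under TMM, −1.44 under RPM, −0.89 within miRNAs and −0.84 against the total count. Their summed CPM was 1011, 1342 and 2445 at 2 months, 806, 285, 365 and 422 at 6 months and 859, 324 and 886 at 8 months. The 3 values of 2-month mice lay above the other 7. miR-451a, which had the highest mean RPM of all miRNAs over the 10 libraries, is matured by Argonaute 2 without Dicer and is needed for red cell formation. It had 728, 946 and 1966 CPM at 2 months, 576, 200, 253 and 326 CPM at 6 months and 631, 221 and 667.65 CPM at 8 months, a log2 fold change of −1.56 ± 0.48 (SE; edgeR adjusted p = 0.736).

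miR-144 is made from the same primary transcript as miR-451a. Its 5p arm had 21.3, 31.6 and 32.7 CPM at 2 months, 11.3, 6.10, 8.32 and 6.49 CPM at 6 months and 10.5, 6.96 and 15.0 CPM at 8 months (log2 fold change −1.63 ± 0.31, edgeR adjusted p = 0.612, DESeq2 adjusted 0.00531). Over its 25 alternatives the adjusted p ran from 0.00531 to 1.00 and the log2 fold change from −1.82 to −0.91. The 3p arm had 146, 195 and 210 CPM at 2 months against 33.1 to 119 CPM, median 63.6, at 6 to 8 months (−1.30 ± 0.40). Both arms were thus lower in each of the 7 libraries than in any 2-month library. miR-486a-3p, from a locus inside the ankyrin gene Ank1, had 8.04, 12.7 and 6.91 CPM at 2 months and 1.54 to 4.37 CPM, median 3.07, later (−1.68 ± 0.36, edgeR adjusted p = 0.683, DESeq2 adjusted 0.0472). Its 5p arm overlapped between ages (−1.31 ± 0.46). miR-16-5p, which is abundant in red cells and present in most other cells, had 65.5, 86.2 and 160 CPM at 2 months against 21.1 to 64.7 CPM, median 39.4 (−1.32 ± 0.41), a gap between the ages of less than 1 CPM.

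The size of the red cell group's difference changed with the libraries used. Without the 4 rich libraries 3 of 6 were lower (median −0.87), without 2-month replicate 3 4 of 6 (median −1.20), and against the total count 0 of 6 although all 6 fold changes stayed below 0. With depth as a covariate 6 of 6 were lower (median −1.19). Of the 3 libraries at 6 to 8 months with the smaller circRNA and lncRNA share, 6-month replicate 1 and 8-month replicates 1 and 3, summed CPM was 806, 859 and 886, nearest to the 2-month mice. This order did not hold on the RPM scale. There those 3 libraries were at 714, 879 and 939, and the rich 6-month replicate 4, at 1226, lay nearest to the 2-month mice. By age, 6 of 6 were lower at 6 months (median −1.77) and 2 of 6 at 8 months (median −1.19). Both comparisons use the same 2-month libraries.

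miR-296-5p had the smallest p of all 17514 RNAs. It had 1.39, 1.52 and 2.48 CPM at 2 months, 0.315, 0.205, 0.203 and 0.307 CPM at 6 months and 0.547, 0.177 and 0.476 CPM at 8 months. These values rest on 24, 11 and 32 counts at 2 months and on 2 to 8 counts per library later, so the later values carry a wide counting error. It passed the filter through the 2-month libraries alone, at 1.79 to 3.76 RPM against 0.279 to 0.893 RPM later, so its difference is a description and its p no support. All 7 later libraries lay below the 3 young ones, with a log2 fold change of −2.55 ± 0.38 (edgeR adjusted p = 0.309, adjusted 0.0155 among miRNAs alone). The fold change was −1.95 without the 4 rich libraries and between −2.74 and −1.27 over its 25 alternatives, with adjusted p from 0.000186 to 1.00. miR-7a-5p, a miRNA of endocrine and neural cells that is also found in blood, had 4.34, 5.24 and 5.75 CPM at 2 months and 0.982 to 2.52 CPM, median 2.15, later (−1.39 ± 0.30, edgeR adjusted p = 0.683, DESeq2 adjusted 0.0472). No miRNA was higher. The smallest p among those with a positive fold change was that of miR-130a-3p, with 3.94, 3.03 and 3.73 CPM at 2 months against 3.15 to 14.7 CPM, median 4.87, later (0.87 ± 0.46, edgeR adjusted p = 0.803).

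**Figure D3:**
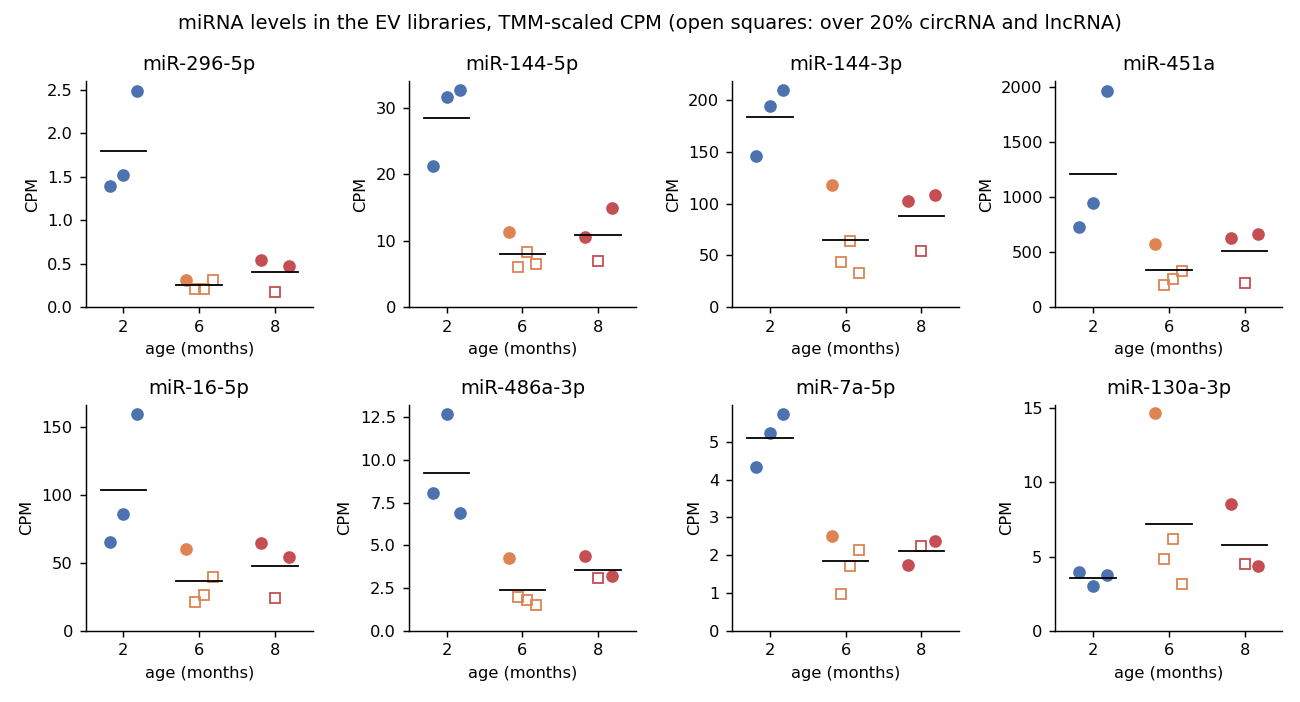
CPM (TMM-scaled, linear axes from 0) of 8 miRNAs in each EV library by age, with bars at the group means and open squares for the 4 libraries with over 20% circRNA and lncRNA counts. For miR-296-5p, both miR-144 arms, miR-451a, miR-16-5p, miR-486a-3p and miR-7a-5p all 7 values at 6 and 8 months lie below the 3 values at 2 months, while miR-130a-3p overlaps.

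Seed groups differed in their medians. Of 13 seed groups with at least 3 tested members, 12 had a median log2 fold change below 0 under TMM. The lowest median was that of CAGUGCA (miR-148a-3p, miR-148b-3p and miR-152-3p), at −1.33 and −0.50 within miRNAs, with 1 of 3 members lower. The AAAGUGC group, which regulates cell cycle entry, had 4 of 4 members lower (miR-17-5p, miR-20a-5p, miR-93-5p and miR-106b-5p) with a median of −1.20, and −0.59 when scaled within miRNAs. These 4 are counted again among the 7 lower arms of miR-17-92 and its paralogs below. In that list none was lower without the 4 libraries rich in circRNA and lncRNA counts. The AGCAGCA group of miR-15 and miR-16, which targets Bcl2 and cyclins, had 4 of 6 lower (median −1.09, within miRNAs −0.45). miR-15a-5p did not overlap between the ages, with 5.61, 6.89 and 8.93 CPM at 2 months against 1.60 to 4.57 CPM, median 2.54 (−1.24 ± 0.35). At the other end, the miR-29 group (AGCACCA), which acts on collagen messenger RNAs, had a median of 0.00, and 0.69 within miRNAs. The 4 measured arms of the miR-29 family had medians of −0.06 under TMM, 0.16 under RPM and 0.89 against the total count. miR-29a-3p had 24.9, 38.0 and 81.1 CPM at 2 months and 26.4 to 63.2 CPM, median 43.2, later.

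The cluster miR-17-92 with its paralogs had 11 of 22 listed arms above the filter, of which 11 had a fold change below 0 and 7 were lower (median −0.98, RPM −0.93, within miRNAs −0.43, total count −0.34). miR-25-3p, of the paralog cluster in Mcm7, had 214, 311 and 249 CPM at 2 months and 57.1 to 188 CPM, median 84.6, later, without overlap (−1.20 ± 0.40). Without 2-month replicate 3 the count was 1 of 11, with all 11 fold changes still below 0 and a median of −0.85. Without the 4 rich libraries it was 0 of 11, with 9 below 0 and a median of −0.47. In the let-7 family, which restrains growth in adult tissue, 4 of 9 were lower and 8 had a fold change below 0 (median −0.69, RPM −0.76, within miRNAs −0.28, total count −0.24). let-7d-5p had 18.4, 31.0 and 19.8 CPM at 2 months and 6.09 to 19.2 CPM, median 10.3, later (−1.05 ± 0.39). The let-7 count was 0 of 9 without 2-month replicate 2 (median −0.55) and 2 of 9 without replicate 3 (median −0.73), with 8 fold changes below 0 each time, and 0 of 9 without the 4 rich libraries (median −0.21).

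With 6 and 8 months joined, none of the listed markers of other cell types was lower or higher. This held for 4 of 5 listed platelet and myeloid miRNAs that were measured (median log2 fold change −0.29), 5 of 6 lymphocyte (−0.49), 5 of 5 liver (−0.45), 4 of 4 endothelium and smooth muscle (−0.38), 2 of 7 skeletal and heart muscle (−0.14) and 2 of 8 brain miRNAs (0.24). Fold changes were below 0 in 5 of 5 liver, 5 of 5 lymphocyte and 4 of 4 endothelium and smooth muscle miRNAs. The same held for 3 of 4 platelet and myeloid, 1 of 2 muscle and 1 of 2 brain miRNAs. By age, liver miRNAs had medians of −0.19 at 6 months and −1.29 at 8 months (RPM 0.39 and −1.44). Of the 5, 1 was lower at 8 against 2 months and 2 at 8 against 6 months. In the other lists none was lower or higher at either age. miR-126a-5p, made by endothelial cells from an intron of Egfl7, had 70.0, 88.5 and 244 CPM at 2 months and 37.5 to 250 CPM, median 81.2, later. The 18 measured arms of the rodent repeat cluster (miR-297, miR-466, miR-467 and miR-669, with 80 arms listed) had a median of 0.24 with none passing. Of the 97 arms of the imprinted Dlk1-Dio3 cluster only miR-494-3p was measured (0.58 ± 0.90). Of 8 miRNAs that the study lists as changed with age in many tissues 4 were measured and none passed (median −0.06). That list was chosen by the study on other samples.

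Of 407 tRNA genes, 194 were lower and 0 higher at 6 to 8 months. A fold change below 0 under TMM was found in 406 of them, and in 239 against the total count. Many copies of a tRNA gene share all their reads. Counted once, 92 of 223 genes with distinct counts were lower. The median fold change was below 0 in all 23 isotypes under TMM and under RPM, in 10 of 23 against the total count and in 6 of 23 when scaled within tRNAs. Those 6 were Glu (−1.59 under TMM, −0.60 within tRNAs), Pro (−1.51 and −0.56), His (−1.37 and −0.42), initiator Met (−1.14 and −0.21), Trp (−1.20 and −0.20) and selenocysteine (−0.90 and −0.09). Gln tRNAs were at the other end (−0.30 and 0.51). Scaled within tRNAs, Ile (0.40) and elongator Met (0.32) had the next highest medians after Gln.

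tRNA-Glu-TTC-1-1 has 4 copies with the same counts. It had 1138, 829 and 3225 CPM at 2 months, 911, 230, 320 and 432.8 CPM at 6 months and 467.1, 261 and 371 CPM at 8 months (−2.02 ± 0.50, edgeR adjusted p = 0.683). tRNA-Pro-TGG-4-1 had 111, 172 and 451 CPM, then 107, 54.6, 69.8 and 54.6 CPM, then 33.7, 47.6 and 62.2 CPM, without overlap (−1.997 ± 0.43, edgeR adjusted p = 0.683, DESeq2 adjusted 0.0472). tRNA-Ala-CGC-5-1 had 153, 69.9 and 310 CPM and later 18.0 to 90.0 CPM, median 26.8 (−2.32 ± 0.51), with 1 later library above the lowest young one. In all 3 genes 2-month replicate 3 was the highest library, and of the later ones 6-month replicate 1 was the highest. Without 2-month replicate 3 the count was 15 of 407 with a median of −0.50, against −0.85 with all libraries, and the fold change of tRNA-Pro-TGG-4-1 was −1.21. Without 6-month replicate 1 the count was 303, and without the 4 rich libraries 75 were lower and 1 higher. With RPM scaling 31.0% were lower, with TMM within tRNAs 51 were lower and 23 higher, against the total count 7 were lower, and with depth as a covariate 28. In 2-month replicate 3 the counts summed to 3.23 times the number that the authors divided by for RPM, against 1.03 to 2.05 in the other 9 libraries. The part of this in the tRNA values was not tested.

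**Figure D4:**
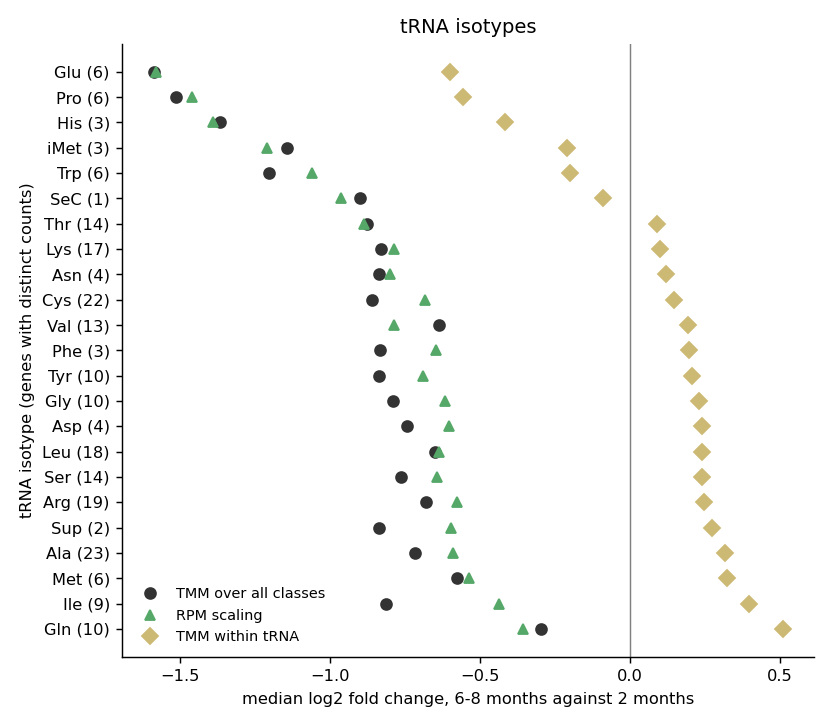
Median log2 fold change of the tRNA genes of each isotype, 6 to 8 months against 2 months, under TMM, RPM and TMM within tRNAs, with the number of genes with distinct counts in brackets. All 23 isotypes lie below 0 under TMM and RPM, from −1.59 (Glu) to −0.30 (Gln) under TMM, and 6 of 23 within tRNAs.

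Y RNAs, short RNAs bound by the Ro60 protein and a common source of fragments in blood, are represented by Rny1 and Rny3. Rny1 lies at chr6:47788069-47788180 on the minus strand and Rny3 at chr6:47781624-47781725 on the plus strand, neither inside another gene. Their full transcripts (GENCODE M21, GRCm38, 112 and 102 bases) are shown to tell the sources of the fragments apart.
Rny1: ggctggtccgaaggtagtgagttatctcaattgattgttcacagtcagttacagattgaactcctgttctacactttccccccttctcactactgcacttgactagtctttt
Rny3: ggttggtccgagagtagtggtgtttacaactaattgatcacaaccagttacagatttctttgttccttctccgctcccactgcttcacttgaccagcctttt

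Rny1 fragments had 51.2, 60.5 and 74.0 CPM at 2 months, 57.1, 27.0, 38.8 and 23.0 CPM at 6 months and 27.9, 16.8 and 25.6 CPM at 8 months (−1.01 ± 0.35, edgeR adjusted p = 0.736). The 8-month values lay below all of 2 months, and 1 of the 6-month values did not. Rny3 had 7.23, 10.9 and 4.81 CPM, then 15.1, 12.3, 2.74 and 6.26 CPM, then 11.6, 6.49 and 8.80 CPM (0.24 ± 0.46), so its ages overlapped fully. The difference between the pair was not tested. Against the total count the fold change of Rny1 was −0.23. The vault RNA Vaultrc5 (−0.30), the 3 measured 7SL genes of the signal recognition particle (median −0.37) and the transcription regulator 7SK (0.25) did not pass.

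Of 188 rRNA entries 5 were lower and none higher. They were 1 of the genes named as 5S (median of the kind −0.54, within rRNAs 0.12) and 4 entries with no kind in their names, of which Gm23668 had the smallest p (−1.28, and −0.52 without 2-month replicate 3). The single 5.8S gene did not pass. Of the spliceosomal snRNAs named by kind, 4 U1 genes (median −0.46) and 1 gene each of U2, U5, U7, U11 and U12 were measured and none passed. The snRNA gene with the smallest p, Gm25005, had 2.14, 2.48 and 3.57 CPM at 2 months and 0.944 to 1.46 CPM, median 1.19, later (−1.19 ± 0.26, edgeR adjusted p = 0.683), without overlap. Among snRNAs 6 (2.01%) were lower in all 7 later libraries than in each young one, beside 0.771% of all RNAs, and none was higher in all 7, beside 0.908%.

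RNAs annotated as piRNAs, the guides of PIWI proteins in the germ line, showed no common direction, with 69 of 828 lower, 64 higher and a median of 0.00. Of the 64, 58 had passed the filter through the later libraries alone. The lowest p was that of oocyte_piRNA1831, with 96.5, 93.1 and 528 CPM at 2 months, 77.4, 17.8, 21.9 and 20.3 CPM at 6 months and 23.4, 22.1 and 26.3 CPM at 8 months (−3.00 ± 0.58, edgeR adjusted p = 0.612, adjusted 0.024 among piRNAs alone). All later values lay below the young ones, but 6-month replicate 1 stood near them, and without 2-month replicate 3 the fold change was −1.67 (adjusted p = 1.00). oocyte_piRNA1916 followed it closely, with 89.9, 82.5 and 494.8 CPM against 18.1 to 70.1 CPM, median 23.3 (−2.92 ± 0.56, and −1.55 at the least with 1 library left out). The most abundant entry, oocyte_piRNA978, ran from 894 to 46936 CPM in the later libraries and had 10548 to 19952 CPM at 2 months. The piRNA with the smallest p on the other side, piR-9985, had 1, 0 and 0 counts at 2 months and 0.109 to 1.19 CPM later, so no fold change is given.

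For single lncRNAs and circRNAs the largest differences rested on 1 or 2 young mice. The lncRNA Gm48538 on chromosome 12 had 978 CPM in 2-month replicate 1 and 0.304 to 2.30 CPM in the other 9 libraries. A330087D11Rik had 17.8, 0.689 and 60.8 CPM at 2 months and 0 to 1.38 CPM later (−5.20 ± 0.90, edgeR adjusted p = 0.612, DESeq2 adjusted 0.000581). mmu_circ_0007125, from the ubiquitin ligase gene Mib1, had 3.82, 0.276 and 26.0 CPM and later 0.238 to 1.06 CPM (−3.59 ± 0.76). In both of the latter, replicate 2 of the young mice lay among the older ones, and without 2-month replicate 3 the fold change of mmu_circ_0007125 was −1.38. In the other direction, mmu_circ_0000347, from the chromatin gene Asxl2, had 0.0579, 0.138 and 0.155 CPM at 2 months and 0.315 to 0.875 CPM, median 0.609, later, without overlap (2.42 ± 0.55, edgeR adjusted p = 0.683). Those young values rest on 1 or 2 counts each, and the circRNA passed the filter through the later libraries alone, which fixes the direction. The lncRNA Gm28722 had 0.231, 0.276 and 0.311 CPM and later 0.531 to 1.26 CPM, median 0.875 (1.63 ± 0.40), and had passed the filter in the same way.

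A second set of RNAs was high in exactly those 3 older libraries that were not rich in circRNA and lncRNA counts. The lncRNA 4732419C18Rik had 21.4, 32.1 and 34.5 CPM at 2 months, 282, 43.9, 13.5 and 20.0 CPM at 6 months and 202, 27.3 and 259 CPM at 8 months (2.05 ± 0.98, edgeR adjusted p = 0.797). The rRNA entry Gm24601 had 168, 421 and 261 CPM, then 1770, 354, 66.9 and 57.7 CPM, then 1663, 220 and 1548 CPM (1.52 ± 1.05). mmu_circ_0004355, from Mtap1b, had 2.66, 3.72 and 2.10 CPM, then 21.0, 4.79, 2.23 and 0.614 CPM, then 19.7, 3.90 and 15.6 CPM (1.77 ± 0.92). Without the 4 rich libraries the fold changes of 4732419C18Rik and mmu_circ_0004355 were 3.09 and 2.75, and these were the 2 RNAs that edgeR then called. These 3 RNAs were singled out after their values were seen.

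Apart from each other, the later ages gave few calls. 6 against 2 months gave 0 RNAs at an adjusted p under 0.05 (0%), with 397 lower (2.27%) and 368 higher (2.1%) at an unadjusted p under 0.05. DESeq2 called 6, all lower. With RPM scaling 194 were lower and 421 higher, and against the total count 21 and 1398. At 8 against 2 months edgeR again called 0 (0%), with 635 lower (3.63%) and 564 higher (3.22%), while DESeq2 called 100, 97 lower and 3 higher. By class, the 100 were 84 tRNA genes, 13 piRNAs and 1 each of the circRNAs, lncRNAs and misc_RNAs. RPM scaling gave 497 lower and 302 higher there and the total count 122 and 638. Under TMM, tRNA genes had a median of −0.66 with 48 lower at 6 months and of −1.14 with 198 lower at 8 months. Against the total count their medians were 0.19 with 0 lower at 6 months and −0.60 with 58 lower at 8 months. miRNAs had TMM medians of −0.61 with 43 lower at 6 months and −0.52 with 28 lower at 8 months. Against the total count these were 0.42 with 2 lower and −0.13 with 6 lower. Both comparisons share the 3 young mice. Between 8 and 6 months edgeR called 0 (0%), with 257 lower (1.47%) and 447 higher (2.55%), and DESeq2 called 18 higher, 15 of them snoRNAs. Here RPM scaling gave 598 lower and 168 higher, the total count 531 and 94, and TMM within each class 331 and 358. limma called none in any of these comparisons.

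Of the 186 snoRNAs measured, 98 were higher and 1 lower at 8 than at 6 months, where 2.55% of all RNAs were higher. An snoRNA that reached 1 RPM in 8-month libraries alone passed the filter through the high group, which favours this direction. How many did so was not counted, and 47 of the 186 reached 1 RPM in no 2-month library. With RPM scaling 82 were higher and 4 lower, against the total count 58 and 4, and with TMM within snoRNAs 17 and 22. The last scale brings snoRNAs as a whole near 0 by construction. Among H/ACA box snoRNAs 21 of 27 measured members (42 listed) were higher, with 27 of 27 fold changes above 0 and a median log2 fold change of 2.45 (RPM 2.00, total count 1.65, within snoRNAs 0.57). Their summed CPM was 92.4, 274 and 84.4 at 2 months, 146, 105.9, 96.4 and 20.3 at 6 months and 683, 291 and 290 at 8 months. The 8-month values lay above all others, and replicate 1 was the highest by far. On the RPM scale the sums were 699, 603 and 307 at 8 months, and 2-month replicate 2, with 322.5, overlapped with them. Under TMM, snoRNAs also lay lower at 6 than at 2 months, which adds to the difference between 8 and 6 months. At 6 against 2 months 18 of the 186 were lower (9.68%, beside 2.27% of all RNAs) and 5 higher, with a median of −0.76. Against the total count 2 were lower and 14 higher there (median 0.20).

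**Figure D5:**
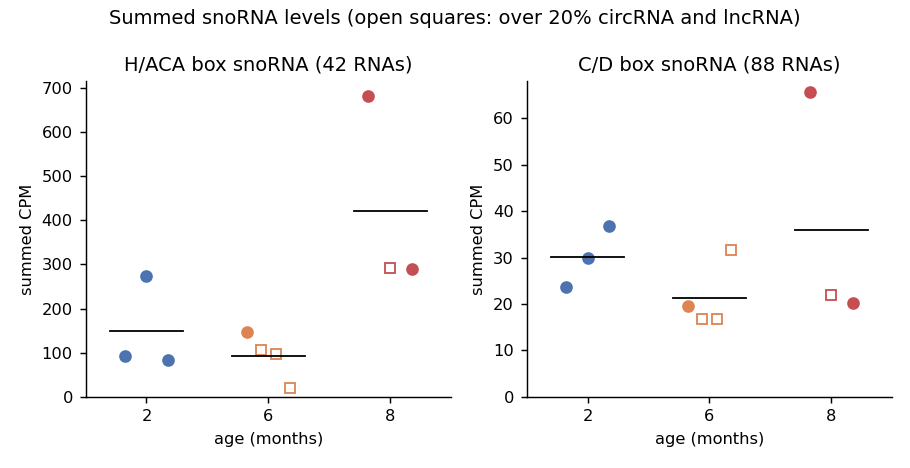
Summed CPM (TMM-scaled) of the listed H/ACA box (42) and C/D box (88) snoRNAs in each EV library by age, with bars at the group means and open squares for the 4 libraries with over 20% circRNA and lncRNA counts. H/ACA sums reach 683, 291 and 290 at 8 months against 20.3 to 146 at 6 months, while C/D sums overlap.

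Of 3 H/ACA members named after their values were seen, Snora16a alone was higher in each 8-month library than in all others. Snora65, which lies within Rpl12 at chr2:32963291-32963420, had 1.16, 1.24 and 1.63 CPM at 2 months, 0.158, 0.246, 0.304 and 0.115 CPM at 6 months and 5.03, 1.06 and 1.19 CPM at 8 months (8 against 6 months 3.52, edgeR adjusted p = 0.374). Its 6-month values were low rather than its 8-month values high, since 8-month replicates 2 and 3 lay at the level of the young mice. Snora16a, within Snhg12 at chr4:132309465-132309600, had 2.89, 9.09 and 3.42 CPM, then 4.89, 2.82, 2.03 and 0.691 CPM, then 32.5, 13.5 and 12.1 CPM (2.93, edgeR adjusted p = 0.702). Snora81, within Eif4a2 at chr16:23110756-23110933, had 4.86, 17.2 and 9.63 CPM, then 9.61, 4.99, 3.76 and 1.65 CPM, then 61.3, 14.9 and 17.2 CPM (2.66, edgeR adjusted p = 0.748, and 1.70 without 8-month replicate 1), which overlapped with 2-month replicate 2. Host transcripts of ribosomal and translation genes are common among snoRNAs, which are cut from their introns.

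The H/ACA counts depended on 8-month replicate 1. Without 8-month replicate 1, 12 of 26 were higher (median 1.66), and leaving out any other library gave 20 to 22. Against 2 months 8 of 27 were higher at 8 months (median 1.37), but 0 of 26 without 8-month replicate 1 (median 0.45), 0 of 27 without 2-month replicate 1 and 2 of 27 without 2-month replicate 3. At 6 against 2 months 4 of 27 were lower and 0 higher, and 25 of 27 fold changes were below 0. The median there was −0.999 under TMM and −0.71 under RPM, but −0.05 against the total count. Over 6 to 8 months together none passed (median 0.40), and without the 4 rich libraries 9 of 26 were higher (median 1.31). C/D box snoRNAs, which guide 2′-O-methylation, had 8 of 27 measured members (88 listed) higher at 8 against 6 months and 1 lower, with a median of 0.67, but of −1.06 within snoRNAs with 0 higher and 8 lower. Without 8-month replicate 1, 1 of 20 C/D members was higher. Their summed CPM was 23.6, 29.9 and 36.7 at 2 months, 19.5, 16.8, 16.7 and 31.7 at 6 months and 65.6, 21.8 and 20.2 at 8 months, so apart from 8-month replicate 1 the ages overlapped.

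To ask whether the step from 2 to 6 to 8 months was particular to EVs, the same step was fitted in the EV-depleted plasma of the same ages (10 libraries) as an interaction of age and fraction. Of 19820 RNAs edgeR called 0 (0%), with 443 at an unadjusted p under 0.05 towards lower in EVs (2.24%) and 619 towards higher (3.12%), or 316 and 317 with RPM scaling, and DESeq2 called 0 (397 and 606 unadjusted). The smallest adjusted p was 0.802. The difference between the fractions in the age step of miR-296-5p was 0.06 (log2, edgeR adjusted p = 1.00), with plasma at 1.65 to 4.23 CPM at 2 months and 0.0909 to 0.811 CPM later. That of miR-144-5p was 0.02 (edgeR adjusted p = 1.00), and of the 6 red cell miRNAs none passed (median −0.05). For these miRNAs no difference between EVs and plasma in the age step was detectable with these mice. The interaction fit took all libraries as independent, although EV and plasma libraries were taken to come from the same mice. With a block by mouse edgeR also called 0. Plasma 6-month replicate 1 was shallow, with 928651 counts, 4977 of them of miRNAs. The RNAs with the smallest p rested on single libraries or low counts: Gm48538 (−8.12) is the lncRNA that was high in 1 young EV library, and mmu_circ_0010706, from Nbea (9.23, edgeR adjusted p = 0.802), was at 0.118 to 0.405 CPM in all EV libraries. Gm34983 (2.30, edgeR adjusted p = 0.802) had 0.138 to 0.405 CPM in young EVs and 0.238 to 0.778 CPM later. In plasma the summed H/ACA level was 39.5 to 85.7 RPM at 2 months, 35.8 to 76.6 RPM at 6 months and 98.6 to 197 RPM at 8 months, with the 8-month libraries above the rest, while in EVs on the same scale 2-month replicate 2 overlapped with them. The labels of the 2-month plasma replicates 2 and 3 carry 1 shared code, and they were taken as separate mice.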

How the data were processed

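Small RNA libraries of the EV-enriched fraction of 3 (2 months), 4 (6 months) and 3 (8 months) mice were analysed, with plasma libraries of the same ages for the interaction. Estimated counts without normalization were deposited by the authors, as was a signal in RPM (reads per 1000000) that equals the count over a constant of the library. The sources used here do not name that constant, the aligner or the annotation. The submitters' processing notes name the genome build mm10 and R 4.0.4. All columns were matched to samples (0 left out). Of the RNAs 46 had a value that was not whole, and the estimated counts were rounded.

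RNAs that reached 1 RPM in 2 of 10 libraries, or in 3 of 20 with plasma (above 10%), were tested with edgeR 4.0.16 (limma 3.58.1, R 4.3.3) by TMM, glmQLFit and glmQLFTest, with Benjamini-Hochberg adjustment over all RNAs, a threshold of 0.05 and a prior count of 0.125 for fold changes. 6 against 2, 8 against 2 and 8 against 6 months came from 1 fit of 3 groups. SE is the fold change divided by the square root of F. Class shares were tested by exact permutation in Python 3.11.15 (numpy 2.4.6, pandas 2.3.3, scipy 1.17.1, matplotlib 3.10.9). The fits were tested on simulated data. Alternatives were other scalings, DESeq2 1.42.0, limma on log2(RPM + 1) and log2(RPM + 0.1), other filters, a depth covariate, all 14 EV libraries, replicate blocks and leaving out each library. Added after seeing the data were copies counted once, each class on its own and leaving out the 4 libraries rich in circRNA and lncRNA counts.

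Named were, per class, the smallest p in each direction and the 2 most abundant RNAs, the 3 smallest p of the interaction and up to 3 members of each list. Calls of other tools, seed groups, Y RNAs, tRNA genes and single snoRNAs were named after their values were seen. The members and lists were chosen with earlier results of these data known. Among tested RNAs 505 repeat the counts of another.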

Additional observations from a re-analysis of the deposited data

Results flagged for a closer look

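Among 78 groups of 4 or 7 libraries, 8 held a value at one end that stood apart from the rest by Dixon's test. Chance gives this in about 1 in 20 groups. The snRNA share was 9.04% in 6-month replicate 4, with the next of the 7 libraries of 6 to 8 months at 4.33%. oocyte_piRNA1831 had 77.4 CPM in 6-month replicate 1, with the next value at 21.9 CPM among the 4 libraries of 6 months and at 26.3 CPM among all 7, which gives 2 of the 8. The same library stood apart at 6 months for let-7d-5p (19.2 CPM against 7.12 CPM), miR-20a-5p (9.14 against 3.92 CPM) and miR-486a-3p (4.26 against 1.96 CPM). Gm25269, an snRNA gene, had 0.913 CPM in 6-month replicate 3 against 0.315 CPM in the next library. mmu_circ_0007125 was low in 8-month replicate 3, with 0.238 CPM against 0.788 CPM in the next of 7.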

How the results depend on the processing

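Of the 928 alternative values of 40 named fold changes, 874 kept their direction and side of the threshold, 37 passed it and 17 of 5 RNAs turned. Called RNAs, 0 in all 5 comparisons, were 0 under all alternatives but the following, for which the cause was not tested. For 6 to 8 against 2 months DESeq2 called 12 lower, no filter 186 higher and 143 lower of 60794 tested, the total count 1 lower (Gm48538), each class on its own 1 higher and 14 lower, leaving out the 4 rich libraries 2 higher, and leaving out 1 library 0 to 3 lower (3 without 2-month replicate 2). For 6 against 2 months DESeq2 called 6 lower and no filter 111 higher and 68 lower. For 8 against 2 months DESeq2 called 3 higher and 97 lower, no filter 158 and 95, and each class on its own 1 lower (Scarna2). For 8 against 6 months DESeq2 called 18 higher, no filter 193 higher and 117 lower, at least 3 libraries 3 higher (Gm24679, Gm24886 and Gm22266), each class on its own 1 lower (Gm27427) and leaving out 1 library 0 to 4 higher (4 without 6-month replicate 1). The differences in class share that turned were rRNA, at −6.32 to 2.95 points without 1 library and 10.7 without the 4 rich ones, misc_RNA at −0.0588 to 0.0489 and −0.0025, and snRNA at −0.84 without the 4. The fold change of Gm23668 was 0.22 with TMM within rRNAs and 0.22 for its class alone, and that of Scarna2 0.23 against the total count. In the interaction, Gm48538 was at −8.87 to 0.27 without 1 mouse. miR-144-5p was at −0.095 with the replicate block by mouse, −0.19 with RPM, −0.019 within miRNAs and −0.55 to 0.29 without 1 mouse, and miR-296-5p at −0.065, −0.0073 and −0.72 to 0.61 for the last 3. The replicate block, by number, left the calls at 0 in the 4 EV comparisons, as did the block by mouse in the interaction. Replicate numbers here are a running order of the libraries within an age. At 2 and 8 months they differ from the numbers in the labels. Correlations of libraries with the same replicate number ran from −0.34 to 0.53 in 9 pairs of different ages. Neither they nor the block by number can therefore show whether the label numbers pair libraries. The 2-month plasma replicates 2 and 3 were paired with EVs by number only. For the interaction, at least 3 libraries is the filter itself, and limma was not planned. At 1 RPM a library holds few counts, which limits the precision of low RNAs.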

Other observations

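Older EV libraries, outside the comparisons above, did not continue the step of mid adulthood in 1 direction on the RPM scale, the only one given for them. On the RPM scale the summed red cell miRNAs were at 1582 to 3702 in the 3 young EV libraries and at 533 to 1226 in the 7 of 6 to 8 months. They were at 2184 and 4471 in the 2 libraries of 12 months and at 798 and 2420 in the 2 of 18 months. Plasma held 1254 to 3202 at 2 months, 710 to 1623 at 6 months and 860.5 to 938 at 8 months. The let-7 family summed to 425 to 509 RPM in young EVs, to 210 to 448 at 6 to 8 months, and to 455 to 610 in the 4 older libraries. H/ACA box snoRNAs were at 575 and 1463 RPM at 12 months and at 696 and 165 RPM at 18 months, against 307 to 699 RPM at 8 months. RPM values depend on the constant of each library. Counts summed to 1.73 and 3.81 times that constant at 12 months and to 1.85 and 3.04 times at 18 months. At 2 months they summed to 1.61 to 3.23 times and at 6 to 8 months to 1.03 to 2.05 times. The part of this in the RPM sums was not tested. None of these differences from the older mice was tested.

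Of the snRNAs, 22 were higher (7.36%) and 6 lower at 8 than at 6 months, beside 2.55% and 1.47% of all RNAs, while their median log2 fold change was −0.30. Small Cajal body RNAs, which guide modification of snRNAs, had 4 of 14 higher (median 0.58) and none lower. How many RNAs of these classes passed the filter through 8-month libraries alone was not counted. rRNAs had a median of 0.92 with 1 of 188 higher and 1 lower. A pair of entries that are abundant in EVs varied widely among mice of one age. miR-6238 had 301, 1198 and 542.6 CPM at 2 months, 1108, 239, 66.9 and 19.0 CPM at 6 months and 677, 148 and 785 CPM at 8 months. The circRNA mmu_circ_0007463, from the mitochondrial protease gene Afg3l2, had 3783, 17876 and 8809 CPM at 2 months, 20987, 4830, 2094 and 653 CPM at 6 months and 23680, 3671 and 17697 CPM at 8 months. In both, 6-month replicates 3 and 4 were the lowest.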
